A study of Mus musculus with 17 samples.

Results

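The D cyclins and the proteins that act with or against them form the entry gate of the cell cycle, and their mRNAs were followed here in mouse ovarian follicles treated with an inhibitor of the EGF receptor kinase. The 10 genes were taken by symbol from a table of 25198 genes: the D cyclins Ccnd1, Ccnd2 and Ccnd3, their kinases Cdk4 and Cdk6, the CIP/KIP inhibitors Cdkn1a (p21), Cdkn1b (p27) and Cdkn1c (p57), and the INK4 inhibitors Cdkn2c (p18) and Cdkn2d (p19). Of these, 7 had enough counts to be tested between treatments. Ccnd1, Cdkn1c and Cdkn2c did not.

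Antral follicles from CD1 mice aged 16 days had grown for 8 days in eIVFG, a culture system that encapsulates the follicle. Per the labels, samples of 3 pooled follicles were exposed for 4 h to hCG, the gonadotropin used to start ovulation in culture, together with 10 µM Tyrphostin AG1478 in DMSO. There were 11 Control libraries, 6 in batch 1 and 5 in batch 2, and 6 Tyrphostin libraries, 3 in each batch. The treatment text is the same for all 17 samples, so whether the Control follicles received hCG and DMSO is not stated. The names of the Control libraries carry a further number that divides them into 5 sets. The labels do not say whether libraries of a set came from common animals or cultures, so p-values measure only the spread between these libraries, which may be partly technical.

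A D cyclin binds CDK4 or CDK6, and the complex phosphorylates the RB family of pocket proteins, which frees E2F factors to switch on the genes of DNA synthesis. INK4 proteins bind the kinases and keep the cyclins off, whereas CIP/KIP proteins bind cyclin and kinase complexes, p21 and p27 chiefly holding back the later CDK2 complexes. In the ovary, Ccnd2 is the D cyclin that FSH and cyclic AMP induce in granulosa cells, the somatic cells that fill the follicle wall. Mice without Ccnd2 have granulosa cells that fail to multiply normally. After the ovulatory hormone surge, granulosa cells leave the cell cycle and become luteal cells, a step in which p21 and p27 are known to take part.

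The coding sequences of the 3 D cyclins are shown because the results turn on telling them apart. The first 60 coding bases come from GENCODE M21 on GRCm38, 5′ to 3′ on the coding strand. Capitals mark the codons of the short motif of leucine, cysteine and glutamate through which D cyclins bind pocket proteins.
Ccnd1: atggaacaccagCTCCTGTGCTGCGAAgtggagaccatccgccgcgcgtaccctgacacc
Ccnd2: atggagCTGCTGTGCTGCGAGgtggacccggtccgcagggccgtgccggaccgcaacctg
Ccnd3: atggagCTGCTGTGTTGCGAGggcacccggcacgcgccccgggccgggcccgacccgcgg
The motif was searched in frame as CTNNNNTGNNNNGAN, on the coding strand alone, and started at base 13 in Ccnd1 and at base 7 in Ccnd2 and Ccnd3. It was present in the first 60 coding bases of 100 of 21584 genes (0.463%). Beyond the motif the sequences part quickly. Aligned over whole coding regions of 888, 870 and 879 bases, Ccnd1 and Ccnd2 were identical at 70.2% of bases, Ccnd2 and Ccnd3 at 68.8%, and Ccnd1 and Ccnd3 at 66.3%.

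On GRCm38 with GENCODE M21, Ccnd2 lies on the minus strand at chr6:127125162-127152193, Ccnd1 on the minus strand at chr7:144929931-144939925 and Ccnd3 on the plus strand at chr17:47505051-47599691. Cdk4 lies on the plus strand at chr10:127063534-127067920 and Cdk6 on the plus strand at chr5:3341485-3531008. Cdkn1a lies on the plus strand at chr17:29090976-29100727, Cdkn1b on the plus strand at chr6:134920401-134925513 and Cdkn1c on the minus strand at chr7:143458339-143461050. Cdkn2c and Cdkn2d lie on the minus strands at chr4:109660876-109667189 and chr9:21288410-21291407. The values are sums over whole genes, so exons and UTRs are not separated.

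Not one of the 50-base windows of the longest coding transcript of Ccnd2 was found in another D cyclin. Some 5.17% of them were found in Gm43126, a gene annotated on the opposite strand. Exons of 7 of the 10 genes overlapped a gene on the other strand, by 273 bases in Cdkn1a (AC167363.2) up to 1100 bases in Ccnd1 (LTO1). For Ccnd3 the partner was Bysl and for Cdk4 it was Tspan31. The use of strand in the counting is not stated, and the Smart-Seq2 kit does not mark it, so reads of such partners cannot be told apart. Shared windows made up 29.5% of the Cdk4 transcript, over 67 genes, and 27.2% of the Ccnd1 transcript, in LTO1. They made up 26.6% of the Cdkn1c transcript, in Gm44732, and 21.7% of the Ccnd3 transcript, over Bysl and the pseudogene Ccnd3-ps. For Cdkn1a the share was 10.5%, in AC167363.2, and for Cdk6 it was 1.66%, over 424 genes. The larger the share, the less certain are the counts. Cdkn1b, Cdkn2c and Cdkn2d shared no window.

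Library totals ran from 1820545 to 8291024 counts, so that 3 counts, the limit that a count of 0 allows, stood for 1.64 CPM in the shallowest library and 0.336 CPM in the deepest. CPM, a library's counts brought to a common total, is given here on library sizes scaled by TMM, and the limits cover counting error only. The granulosa genes Inha and Inhba were abundant in every library, at 33998 CPM or more and 17596 CPM or more. Foxl2, a defining granulosa factor, reached no more than 4.66 CPM and was at 0 in 3 libraries, and Amh was at 0 in 12 of 17. Mitochondrially encoded genes took 0.175% of the counts of Control 7 and 1.74% to 2.83% in the other Control libraries. In Tyrphostin libraries that share was 1.55% to 2.5% in batch 1 and 0.781%, 1.32% and 0.797% in batch 2.

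Ccnd2 rose with Tyrphostin. In batch 1 the Control libraries held 62.8 CPM at the lowest, 76.5 at the median and 86.1 at the highest, and the Tyrphostin libraries held 282, 147 and 162 CPM. All 3 Tyrphostin libraries of batch 1 were above all 6 Control libraries, which 5.04% of the 9423 genes tested in that batch also showed. In batch 2 the Control libraries 7 to 11 held 495, 216, 173, 240.2 and 218 CPM, and the Tyrphostin libraries held 479, 611 and 1107 CPM. There the groups overlapped through Control 7 alone, which lay above the lowest Tyrphostin library.

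With batch as a term over all 17 libraries, the log2 fold change of Ccnd2 was 1.43 ± 0.21 (SE; 95% interval 0.99 to 1.87; edgeR adjusted p = 8.71e-05), a 2.69-fold higher level. It was the only 1 of the 7 members tested that was called, at an adjusted p under 0.05. Over all 9603 genes tested, 4.35% were called higher and 6.25% lower, 10.6% in all, and Ccnd2 ranked 93rd by p. Within batch 1 the log2 fold change was 1.42 ± 0.23 (adjusted p = 0.000776; 6.73% of genes called). Within batch 2 it was 1.46 ± 0.37 (95% interval 0.64 to 2.28), which was not called after adjustment (adjusted p = 0.113, unadjusted p = 0.00216; 0.621% of genes called). The difference between the batches was 0.04 ± 0.45 (95% interval -0.9 to 0.98, adjusted p = 1), in a test that called 0 of 9603 genes (0.00%) with edgeR and with DESeq2, and 342 (3.56%) at an unadjusted p under 0.05 with edgeR.

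Leaving out 1 library changed the call of Ccnd2 within batch 2 only. Without Control 7 the log2 fold change of Ccnd2 in batch 2 was 1.79 and was called (adjusted p = 0.00785), and without Tyrphostin 6 it was 1.03 (adjusted p = 0.509). Over both batches it was called whichever library was left out, between 1.26 without Tyrphostin 6 and 1.59 without Control 7. Without the batch term the value was 1.52 and the call was lost (adjusted p = 0.0699).

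Summed markers of other cell types varied between the same libraries, though a single gene can carry much of a sum. Col3a1 alone reached 1772 CPM in the theca and stroma list. In the immune list Lyz2 reached 819 CPM and no other marker went above 20.5 CPM. The summed CPM of 12 theca and stroma markers ran from 276 to 2171 in Control and from 283 to 3103 in Tyrphostin libraries, highest in Control 7 and Tyrphostin 5. That of 12 oocyte markers ran from 35.2 to 189 and from 34.9 to 293, highest in Control 7 and Tyrphostin 6, the libraries with the highest Ccnd2 of their groups. None of the 10 oocyte or the 10 theca and stroma markers tested was called between treatments by edgeR, where 10.6% of all genes were. At an unadjusted p under 0.05 edgeR had 1 and 0 of these markers, where 23.7% of all genes passed. With Control 7 and Tyrphostin 5 both left out, an alternative added after the data were seen, the log2 fold change of Ccnd2 was 1.63 (adjusted p = 5.82e-06). Control 7 had the highest Ccnd2 of the Control libraries, and leaving it out alone gave 1.59, so this fit cannot decide the part of other cells. Without Tyrphostin 6, highest in oocyte markers, the log2 fold change was 1.26. The batch 2 Tyrphostin libraries, with the highest Ccnd2 of the treated libraries, also had mitochondrial shares below those of every Control library but Control 7. The part of these cells and of the mitochondrial share in the level of Ccnd2 was not tested. In bulk samples, fewer cells of a type and less RNA per cell cannot be told apart.

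Among 10 granulosa markers, 8 were tested and 4 were called higher, where 4.35% of all genes tested were: Cyp19a1 (aromatase), Nr5a2 (an orphan nuclear receptor that acts in steroid synthesis), Hsd17b1 (an enzyme of estradiol synthesis) and Fshr (the FSH receptor). These were named after their values were seen. Cyp19a1 rose by 2.35 ± 0.22 and Nr5a2 by 2.18 ± 0.16 in log2 fold change, whereas Inha stood at -0.05 ± 0.15. The summed CPM of the list overlapped between groups, at 85727 to 107511 in Control and 78456 to 114982 in Tyrphostin. No member of the immune list (2 of 7 tested, 17.4 to 463 CPM in Control and 19.9 to 859 in Tyrphostin) or of the endothelial list (3 of 7 tested, 8.54 to 96.2 and 8.95 to 38.5 CPM) was called.

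Ccnd3, the D cyclin most tied to lymphoid and differentiating cells, did not pass the test. In batch 1 the Control libraries held 21.6 CPM at the lowest, 23.4 at the median and 42.0 at the highest, and the Tyrphostin libraries held 20.9, 21.4 and 16.4 CPM. Every Tyrphostin library of batch 1 thus lay below every Control library, by a margin as small as that between 21.4 and 21.6 CPM, a pattern that 6.46% of genes tested showed. In batch 2 the Control libraries held 47.2, 30.4, 16.9, 25.3 and 24.1 CPM and the Tyrphostin libraries 26.3, 41.2 and 25.0 CPM, so the groups overlapped. The log2 fold change over both batches was -0.18 ± 0.21 (95% interval -0.61 to 0.25, edgeR adjusted p = 0.659), with -0.45 ± 0.25 in batch 1 and 0.09 ± 0.31 in batch 2.

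Ccnd1, the D cyclin that growth factor signalling through ERK induces in many cell types, was close to the limit of detection. It had 0 to 10 counts in the Control libraries and 1 to 5 in the Tyrphostin libraries. Control 4 and Control 10 had 0 counts, which allows up to 0.87 and 0.575 CPM. The gene did not pass the filter on low counts, so a treatment difference was not detectable at this depth. The highest levels were 2.19 CPM in Control and 1.35 CPM in Tyrphostin libraries.

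**Figure D1:**
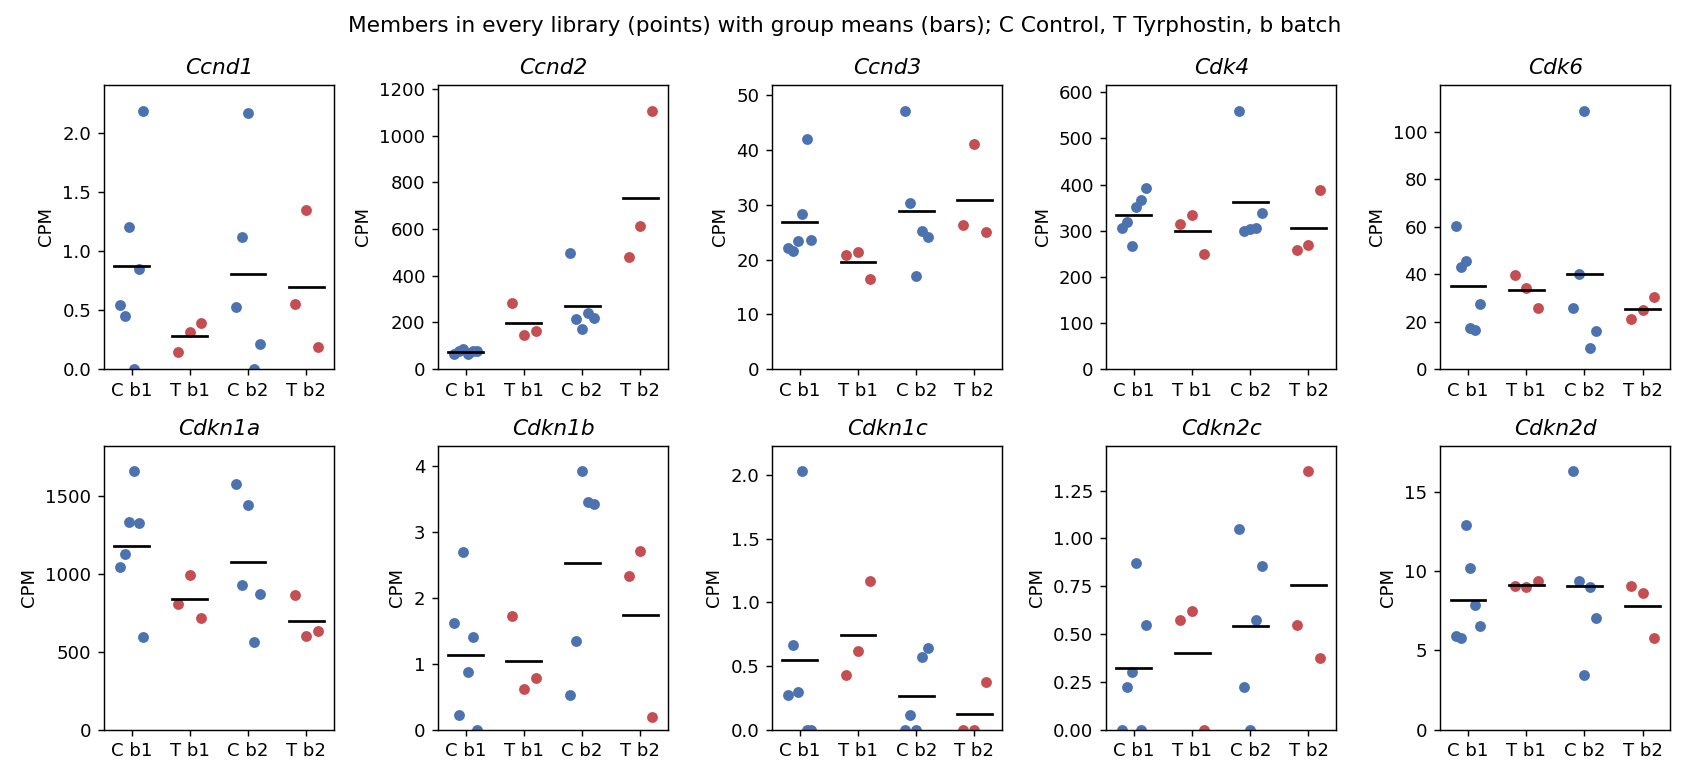
CPM of the 10 genes in each library (points), by treatment and batch (C, Control; T, Tyrphostin; b1 and b2, the batches), on linear axes that start at 0, with group means as bars. Ccnd2 reached 147 to 282 CPM with Tyrphostin against 62.8 to 86.1 CPM in Control in batch 1, and 479 to 1107 CPM against 173 to 495 CPM in batch 2.

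Cdk4 and Cdk6 encode the catalytic partners of the D cyclins, and neither passed the test. Cdk4 held 266 to 392 CPM in the Control libraries of batch 1, with a median of 335, and 314, 334 and 249 CPM with Tyrphostin. In batch 2 it held 560.1, 299, 304, 305 and 338 CPM in Control and 258, 268 and 388 CPM in Tyrphostin libraries. The groups overlapped in both batches, and apart from Control 7 all values lay within 249 to 392 CPM. Its log2 fold change was -0.20 ± 0.17 (95% interval -0.55 to 0.15, adjusted p = 0.524), an interval that leaves out a change of the size seen in Ccnd2.

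Among Control libraries Cdk6 ranged from 8.82 to 109 CPM. Those of set 1 held 60.4, 42.9 and 45.4 CPM and those of set 2, in the same batch, held 17.1, 16.6 and 27.4 CPM. In batch 2, set 4 held 25.7 and 40.0 CPM, set 5 consisted of 1 library with 109 CPM, and set 6 held 8.82 and 16.0 CPM. The sets were not tested against each other, and the share of all genes that separate set 1 from set 2 was not counted. The extremes of all Control libraries both came from batch 2. The 6 Tyrphostin libraries lay between 21 and 39.5 CPM, inside the Control range. The log2 fold change was -0.33 ± 0.42 (95% interval -1.21 to 0.55, adjusted p = 0.697). Without Control 9, the library of set 5, it was 0.03, and with voom over all libraries it was 0.01. Its sign thus depended on that library and on the method.

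**Figure D2:**
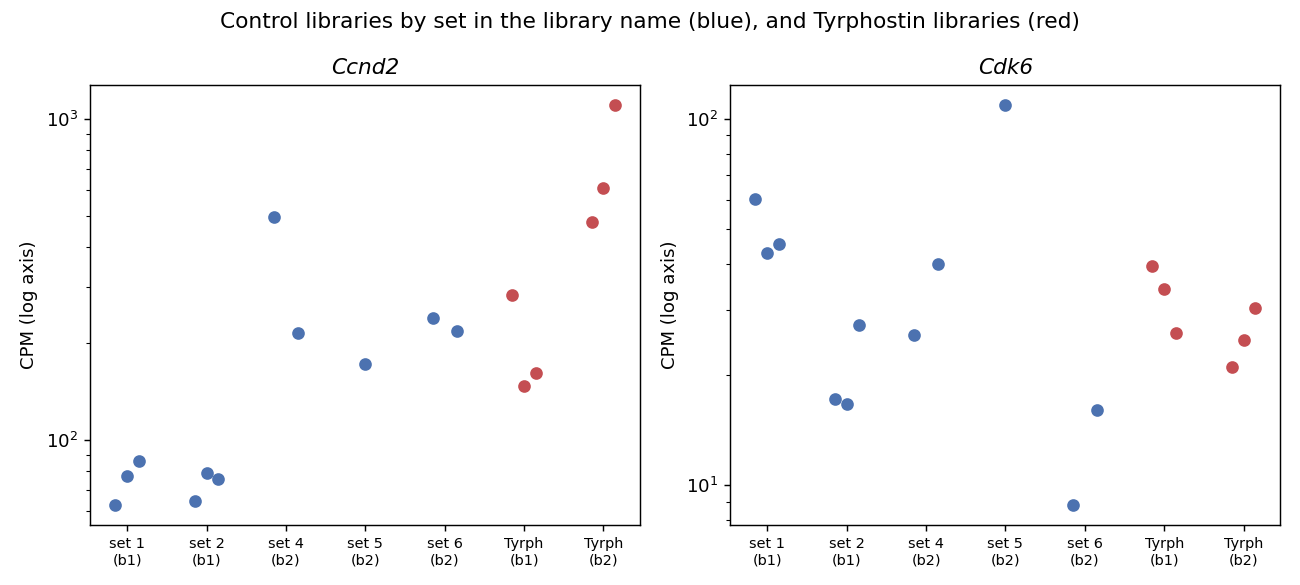
CPM on a log axis of Ccnd2 (left) and Cdk6 (right) in each Control library, by the set number in the library name (blue), and in each Tyrphostin library by batch (red). Ccnd2 divided the Control libraries by batch, at 62.8 to 86.1 against 173 to 495 CPM. Cdk6 held 42.9 to 60.4 CPM in set 1 and 16.6 to 27.4 CPM in set 2 of the same batch, which was not tested.

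Ccnd2 also differed between the batches of Control libraries. Every Control library of batch 2 lay above every Control library of batch 1, as for 3.98% of genes tested, and the log2 difference was 1.87 ± 0.24 (batch 2 minus batch 1; 95% interval 1.36 to 2.38; adjusted p = 0.000189). That 3.66-fold difference ranked 27th by p among 6680 genes tested, of which 14.0% were called and 7.26% were higher in batch 2. It was called whichever library was left out, from 1.56 without Control 7 to 1.99 without Control 9. As a consequence the Control libraries of batch 2 and the Tyrphostin libraries of batch 1 covered overlapping ranges, 173 to 495 and 147 to 282 CPM. None of the other 5 members tested was called: Ccnd3 stood at 0.13 ± 0.25, Cdk4 at 0.14 ± 0.20, Cdk6 at 0.16 ± 0.54, Cdkn1a at -0.12 ± 0.28 and Cdkn2d at 0.19 ± 0.32. The labels do not say what the batches differ in. The summed levels of other cell types' markers overlapped between the Control libraries of batch 1 and batch 2 but differed at the median. These medians were 508 and 1214 CPM for theca and stroma, 57.3 and 111 for oocyte, 37 and 121 for immune and 39.1 and 16.1 for endothelial markers. Such sums can rest largely on 1 gene and are not amounts of cells. The part of other cell types in the batch difference of Ccnd2 was not tested.

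Cdkn1a, which encodes p21, the CDK inhibitor induced by p53 and by many mitogens, had the highest median CPM per kb of the members. In batch 1 the Control libraries held 593 CPM at the lowest, 1225 at the median and 1654 at the highest, and the Tyrphostin libraries held 807, 993 and 713 CPM. In batch 2 the Control libraries 7 to 11 held 1571, 927, 1438, 563 and 869 CPM and the Tyrphostin libraries 862, 602 and 632 CPM. The groups overlapped in both batches, since Control 6 and Control 10 held the lowest values of all. The log2 fold change was -0.55 ± 0.22 (95% interval -1.02 to -0.09), with an edgeR unadjusted p of 0.021. Cdkn1a ranked 1617th by p among 9603 genes tested, of which 23.7% had an unadjusted p under 0.05. The change was not called after adjustment (edgeR adjusted p = 0.124). It stood at -0.49 ± 0.28 in batch 1 and -0.61 ± 0.34 in batch 2. Leaving out Control 6 brought the adjusted p to 0.0518, and leaving out Tyrphostin 6 brought it to 0.229.

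Cdkn1b, which encodes p27, and Cdkn1c, which encodes p57, were near the limit of detection. Cdkn1b had 0 to 18 counts in Control and 1 to 17 in Tyrphostin libraries, or at most 3.91 and 2.70 CPM. It passed the filter over all libraries, with a log2 fold change of -0.34 ± 0.52 and an interval from -1.42 to 0.74 (adjusted p = 0.757), but not in batch 1 alone. Cdkn1c had 0 to 7 counts in Control and 0 to 6 in Tyrphostin libraries, and was at 0 in 6 libraries, in which 0.412 to 1.64 CPM would be allowed. No treatment difference in Cdkn1c was detectable at this depth.

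Of the INK4 inhibitors, Cdkn2d was measured at low counts and Cdkn2c barely at all. Cdkn2d held 5.78 to 12.9 CPM in the Control libraries of batch 1, with a median of 7.24, and 9.04, 9.01 and 9.37 CPM with Tyrphostin. In batch 2 the Control libraries held 16.3, 9.41, 3.47, 9.01 and 7.04 CPM and the Tyrphostin libraries 9.05, 8.63 and 5.78 CPM. The Tyrphostin values fell inside the Control range in each batch, and the log2 fold change was -0.03 ± 0.25 (95% interval -0.54 to 0.48, adjusted p = 0.962). Cdkn2c had 0 to 4 counts in Control and 0 to 5 in Tyrphostin libraries and was not tested. It was at 0 in 4 libraries, which allows 0.585 to 1.3 CPM.

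**Figure D3:**
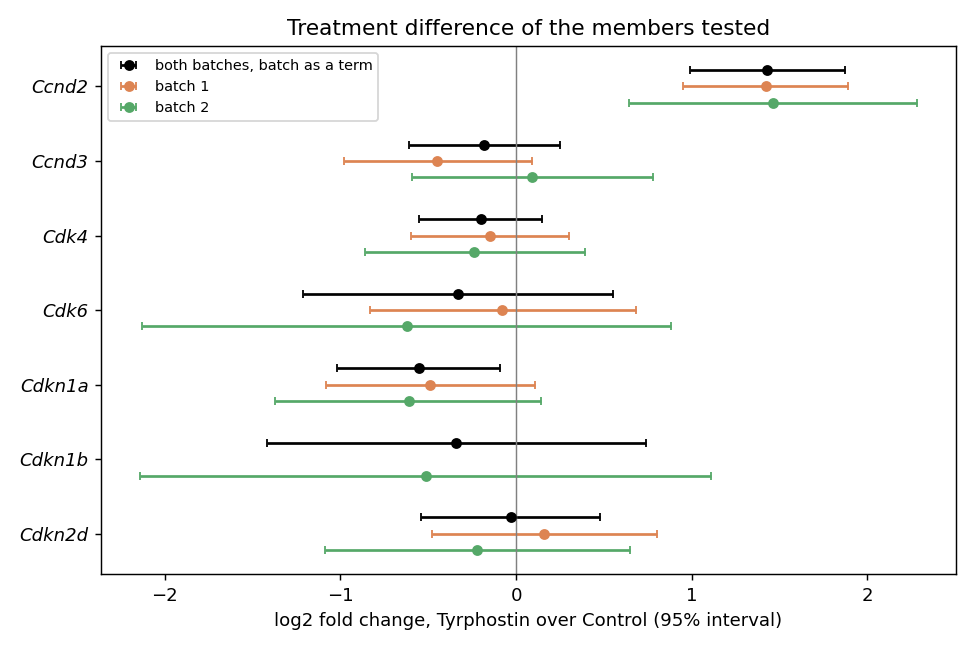
Log2 fold change of Tyrphostin over Control with its 95% interval for the 7 members tested, over both batches with batch as a term and within each batch (Cdkn1b was not tested in batch 1). The intervals of Ccnd2 lay above 0 in all 3 fits, from 0.64 at the lowest bound to 2.28 at the highest. Of the others, only the interval of Cdkn1a over both batches left out 0, and its adjusted p was 0.124.

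To compare levels between genes, CPM was divided by the length of each gene's exons in kb. In Control libraries the medians in CPM per kb were 316 for Cdkn1a, 98.0 for Cdk4, 9.15 for Ccnd2, 5.02 for Cdkn2d, 2.75 for Ccnd3 and 1.96 for Cdk6. Cdkn1b followed at 0.31, and Cdkn1c, Ccnd1 and Cdkn2c at 0.132, 0.114 and 0.111 CPM per kb. Neighbours overlapped between Control libraries: Cdkn1a spanned 158 to 465 CPM per kb and Cdk4 82.0 to 172. Ccnd2 and Cdkn2d also overlapped, at 6.68 to 52.6 and 2.21 to 10.3 CPM per kb, as did Ccnd3 and Cdk6, at 1.93 to 5.38 and 0.63 to 7.76. Cdk4 and Ccnd2 were the only neighbours in this order that did not overlap in Control libraries. In Tyrphostin libraries they did, at 76.7 to 119 and 15.6 to 118 CPM per kb, and Cdkn1a lay above Cdk4 at 169.5 to 279.

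The order below Ccnd2 depended on the length used. With the median coding transcript, Cdk6 stood at 39.3, Ccnd3 at 27.1 and Cdkn2d at 6.25 CPM per kb in Control libraries, since Cdk6 and Ccnd3 have annotated transcripts far shorter than their joined exons. In Control libraries the medians of Cdkn1a, Cdk4 and Ccnd2 kept this order with joined exons, the longest transcript and the median coding transcript. In Tyrphostin libraries, with the median coding transcript, the median of Ccnd2 lay above that of Cdk4 and below that of Cdkn1a.

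**Figure D4:**
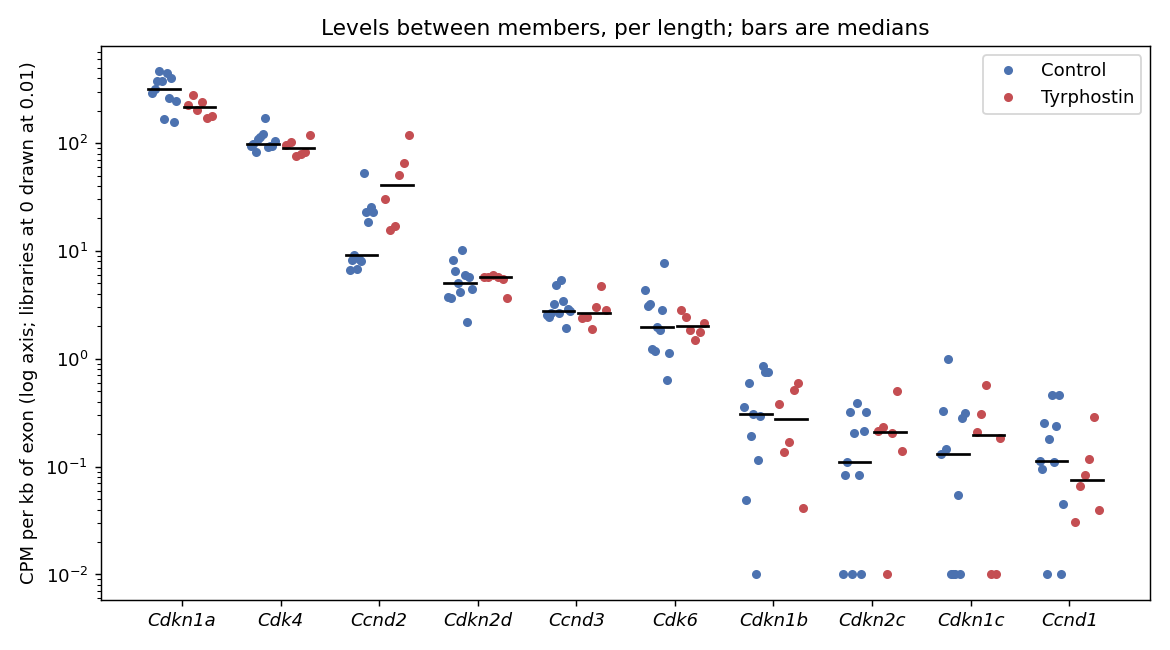
CPM per kb of exon on a log axis for the 10 genes in each library, Control in blue and Tyrphostin in red, with medians as bars and libraries at 0 drawn at 0.01. Cdkn1a and Cdk4 had medians of 316 and 98.0 CPM per kb in Control libraries, and the 4 least abundant genes stayed below 1 CPM per kb at the median.

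Per length of joined exons, Ccnd2 was the main D cyclin in every library, and with the median coding transcript its share was 62.5% or more. It made up 62.7% to 76.3% of the summed CPM per kb of the 3 D cyclins in the Control libraries of batch 1 and 86.2% to 92.5% in the Tyrphostin libraries. In batch 2 the shares were 86.1% to 90.5% in Control and 92.9% to 97.6% in Tyrphostin libraries. These shares are a description and rest on the same counts as the change in Ccnd2. The ratio of Cdkn1a to Ccnd2 in CPM per kb was 20.8 to 68.0 in Control and 7.58 to 17.9 in Tyrphostin libraries of batch 1. In batch 2 that ratio was 6.21 to 22 in Control and 1.51 to 4.76 in Tyrphostin libraries. Cdkn1a thus exceeded Ccnd2 per length of joined exons in all 17 libraries, by the least in Tyrphostin 6. With the median coding transcript as the length, the ratio fell below 1 in Tyrphostin 5 (0.636) and Tyrphostin 6 (0.368) and was 1.16 to 16.6 in the other libraries. Cdk4 exceeded Cdk6 per length of joined exons in all 17 libraries, by a ratio of 12 to 149 in Control and 34.3 to 55 in Tyrphostin libraries, and with the median coding transcript by 1.83 to 22.6.

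The genes downstream of the D cyclins and those that regulate the members are given by list, to be read against the 10.6% of all genes tested that were called. Of 13 RB and E2F genes, 10 were tested and 0 were called, with a median log2 fold change of -0.02 beside 0 over all genes tested. Of 15 later cyclins, their kinases and the kinases' regulators, all were tested and 0 were called, with a median of 0.23. At an unadjusted p under 0.05, which 23.7% of all genes tested passed, edgeR had 3 of 10 genes of the RB and E2F list. It had 4 of 15 of the later cyclins list. DESeq2 called 0 genes of the former, and 2 higher and 1 lower of the latter. Over all 9603 genes tested DESeq2 called 524 higher and 789 lower.

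The S phase list held 21 genes, of which 18 were tested, 1 rose and 1 fell, with a median log2 fold change of -0.06. Mcm3, a subunit of the replicative helicase, rose by 0.91 ± 0.27 (edgeR adjusted p = 0.0319), and Pcna, the sliding clamp of DNA polymerases, fell by 0.66 ± 0.18 in log2 fold change (adjusted p = 0.0159). All 18 genes of the mitosis list were tested and Nusap1, a spindle protein, was the only 1 called, with a log2 fold change of 0.84 ± 0.27 (adjusted p = 0.0465). The list's median was 0.42, and 14 of its 18 estimates were above 0, where 4803 of 9603 were over all genes tested. At an unadjusted p under 0.05 edgeR had 6 of the 18, where 23.7% of all genes passed. Over the settings tried, 0 to 1 S phase genes were called higher and 0 to 2 lower (0 lower with total counts in place of TMM), and 0 to 3 mitosis genes were called higher.

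Genes that control the turnover of D cyclins and p27 were tested for 13 of 14 members in the table, and 1 was called. Cks2, a small partner of CDKs, fell by 1.2 ± 0.29 in log2 fold change (adjusted p = 0.00855). The 6 Tyrphostin libraries averaged 3.45 ± 1.93 CPM (SD) and the 11 Control libraries 7.92 ± 4.28 CPM (SD). Skp2, the F-box protein that targets p27, stood at 0.26 ± 0.21 and was not called, nor was Fbxo4 at -0.03 ± 0.26. Skp2 and Fbxo4 were picked for their known roles after the values were seen. Of the other CDK inhibitors and antiproliferative genes, 7 of 10 were tested and 1 was called. Tob1, an antiproliferative protein of the TOB/BTG family, rose by 1.1 ± 0.26 in log2 fold change (adjusted p = 0.00831).

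Of 17 genes of p53 and its targets, a group that shares p53 with Cdkn1a, 14 were tested, 2 rose and 0 fell, with a median log2 fold change of 0.11. These were Ccng1, the gene of cyclin G1, at 1.21 ± 0.20 (adjusted p = 0.000328), and Sesn1, the gene of the stress protein sestrin 1, at 0.84 ± 0.24 (adjusted p = 0.0254). The number of p53 genes called higher was 1 to 4 over the settings tried. Of 11 FOXO factors and targets, 9 were tested, 2 rose and 2 fell, with a median of 0.38. Of the factors, Foxo1 rose by 1.30 ± 0.27 (adjusted p = 0.00266) and Foxo3 by 1.01 ± 0.19 (adjusted p = 0.00118). Foxo4 was not among the genes called. Foxo1 averaged 13 ± 3.57 CPM (SD) over the 6 Tyrphostin and 5.16 ± 2.61 CPM (SD) over the 11 Control libraries. Trib1, a pseudokinase, fell by 1.65 ± 0.21 in log2 fold change (adjusted p = 1.17e-05), and the other gene that fell was Bcl6, a transcriptional repressor. Bcl6 was named after its values were seen.

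The list of mitogen-induced regulators of Ccnd1 and Cdkn1a held 11 genes, all tested, of which 2 rose and 5 fell, with a median log2 fold change of -0.94. The AP-1 gene Fosl1 fell by 2.38 ± 0.29 (adjusted p = 8.36e-06). It averaged 3.49 ± 1.46 CPM (SD) over the 6 Tyrphostin and 19.7 ± 10.7 CPM (SD) over the 11 Control libraries. Egr1, an immediate early zinc finger factor, fell by 1.71 ± 0.22 (adjusted p = 1.37e-05). Jun, another AP-1 gene, rose by 1.15 ± 0.17 (adjusted p = 7.25e-05). The remaining 4 called genes were Myc, Junb and Ets1, which fell, and Mycn, which rose, and were named after their values were seen.

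**Figure D5:**
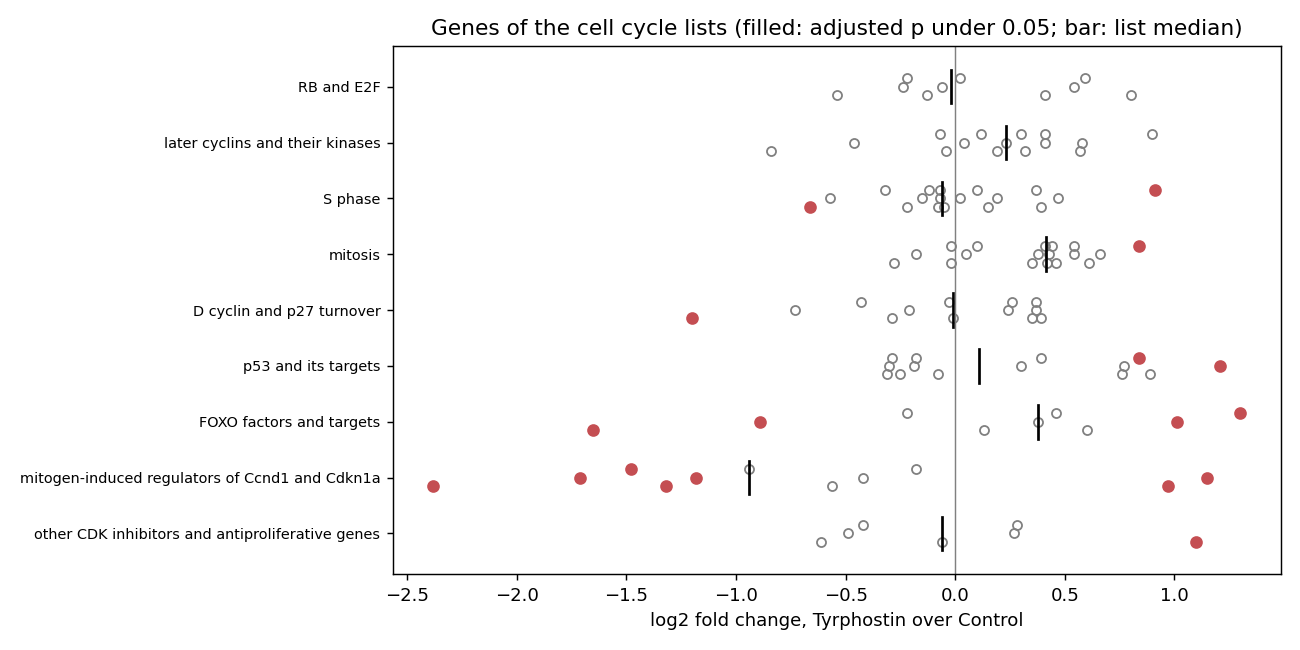
Log2 fold change of Tyrphostin over Control, over both batches, for each gene tested of 9 lists around the D cyclins. Filled points had an adjusted p under 0.05 and vertical bars are list medians, from -0.94 for the mitogen-induced regulators to 0.42 for mitosis.

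The genes nearest in profile to Ccnd2 were sought among 6327 genes with an average log2 CPM of at least 3. Likeness was the root mean square difference in log2 CPM over the 17 libraries, each gene being centred on its mean in each batch. The 3 nearest were Ralb, a small GTPase, at 0.30, Edem2, a factor of endoplasmic reticulum associated degradation, at 0.31, and St3gal4, a sialyltransferase, at 0.32, where the median over all candidates was 0.88. In log2 fold change Ralb rose by 1.17 ± 0.17, Edem2 by 1.01 ± 0.21 and St3gal4 by 1.07 ± 0.20. The measure rests on the same treatment difference that Ccnd2 shows and says nothing of function.

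The scaling of libraries bears on the split of calls, not on Ccnd2. Over both batches 418 genes rose and 600 fell, so that 41.1% of calls were higher. With total counts in place of TMM, 715 rose and 396 fell, 64.4% higher, and the median of all genes stood at 0.15 in place of 0. On that scale Ccnd2 was at 1.57 (adjusted p = 1.15e-05) and Cdkn1a at -0.38 (adjusted p = 0.202). The share of higher calls moved likewise from 43.7% to 63.5% in batch 1, from 31.1% to 47.3% in batch 2 and from 51.8% to 75.7% between the Control batches. The median of all genes then stood at 0.18, 0.11 and 0.21, where it had been 0.02, -0.01 and 0.04.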

How the data were processed

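The deposited table gives raw counts, made by the authors, in whole numbers for each gene symbol. All 17 sample columns were matched by the column names in the labels. Reads were handled with STAR and HTSeq on GRCm38, per the submitters' processing notes. Versions, annotation and strand setting are not given in the sources used here. Per the labels' protocols, RNA-SPRI beads were used for the RNA and Smart-Seq2 for the libraries. That method has no molecular identifiers, so PCR copies can widen the spread and intervals from counts cover counting error only.

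Counts were tested in R 4.3.3 with edgeR 4.0.16: filterByExpr, TMM scaling, robust quasi-likelihood F tests, and Benjamini-Hochberg adjustment over all genes tested, at a threshold of 0.05. Of the genes in the table, 9603 passed the filter with batch as a term. The standard error is the log2 fold change divided by the square root of F, and the 95% interval uses the test's degrees of freedom. The same test was run within each batch (9423 and 9830 genes), for the interaction of treatment and batch, and between the batches of Control libraries (6680 genes). Alternatives were DESeq2 1.42.0, voom from limma 3.58.1 with and without sample weights, scaling by RLE, upper quartile or total counts, other filters, covariates and thresholds, Control libraries summed by set, and each library left out. The code was tested on simulated data.

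The 10 members and all lists were chosen with earlier results of these data known. From each of the 9 pathway lists, up to 3 genes of lowest p among those called are named, and the 3 genes nearest in profile to a called member. Any other gene named for its level or change was picked after its values were seen, which is not repeated at each mention. Skp1 was read under its older symbol Skp1a. No library looked like a copy of another: chi-square over degrees of freedom was 13.7 to 98.8 in the 31 pairs within a group and batch. Proteins are not analysed here.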

Additional observations from a re-analysis of the deposited data

Results flagged for a closer look

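Libraries far from the rest of their group were sought for each gene in the groups of 4 to 10 samples, by the gap to the nearest library as a share of the group's range. Of 30 groups searched, 6 held such a library, and on the log2 scale 2 did. About 1.5 would be expected for independent values of normal spread, which CPM of genes from the same libraries need not be. Ccnd2 in Control 7 was at 495 CPM, where the other Control libraries of batch 2 held 173 to 240.2 CPM. Cdk4 in the same library was at 560.1 CPM, where the others held 299 to 338 CPM, on the log2 scale too. Ccnd3 in Control 5 was at 42.0 CPM, where the other Control libraries of batch 1 held 21.6 to 28.4 CPM. Cdkn2d in Tyrphostin 6 was at 5.78 CPM, below the 8.63 to 9.37 CPM of the other Tyrphostin libraries, on the log2 scale too. Ccnd1 in Tyrphostin 5, at 1.35 CPM from 5 counts, and Cdkn1c in Control 4, at 2.03 CPM from 7 counts, rest on too few counts to describe further.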

How the results depend on the processing

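Ccnd2 was called over both batches in 17 of 18 alternatives (log2 fold change 1.33 to 1.63, adjusted p from 1.5e-09 to 0.0699), the exception being the fit with no batch term. In batch 1 it was called in all 13 alternatives and whichever of 9 libraries was left out. In batch 2 it was called in 4 of 13 alternatives (DESeq2, voom with sample weights, no filter on low counts, and Control 7 and Tyrphostin 5 both left out) and in 1 of 8 leave-one-out fits. Between the Control batches it was called in all 12 alternatives. Cdkn1a was called in 0 of 18 alternatives (lowest adjusted p 0.0757, DESeq2) and 0 of 17 leave-one-out fits.

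The count of 1018 genes called over both batches was 619 without the batch term, 678 with the log10 of the total count added, and 478 at an adjusted p under 0.01, and 708 to 1314 with a library left out. The count of 634 in batch 1 was 394 to 687 with a library left out, lowest without Tyrphostin 2. The count of 61 in batch 2 was 303 with DESeq2, 245 with voom and sample weights and 222 with no filter, and 11 (without Tyrphostin 6) to 221 (without Control 7) with a library left out. The interaction count of 0 was 79 with no filter. The count of 937 between Control batches was 1473 with DESeq2 and 637 to 1025 with a library left out. The causes were not tested.

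The titles number the libraries in each group, and numbers 4 to 6 fall in different batches. The deviations of same-numbered samples correlated at 0.32, 0.08, 0.05, 0.1, 0.03 and 0.11 for numbers 1 to 6, not all over 0.1, so the numbers were not taken as pairs. As a hint from the data, 2 of 6 Tyrphostin and 1 of 6 Control libraries correlated best with their own number. With the number as a replicate block over libraries 1 to 6 the count of calls was 624 and Ccnd2 stood at 1.33. In batch 1 alone with the block Ccnd2 stood at 1.34 (adjusted p = 0.0028).

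Signs changed only for values that were not called. Over both batches Cdk6 was at 0.01 with voom, with and without weights, and from -0.44 to 0.03 with a library left out. Cdkn2d was at 0.13 with total counts, 0.03 with voom, 0.10 with weights, 0.02 with no filter, 0.25 with the replicate block, 0.05 with Control sets summed, 0.09 without Control 7 and Tyrphostin 5, and -0.10 to 0.11 with a library left out. In batch 1, Cdk4 was at 0.01 with the block, and Cdk6 at 0.07 with total counts, 0.06 with voom, 0.09 with weights and -0.22 to 0.16 with a library left out. In batch 2, Cdk4 was at 0.06 without Control 7 and Tyrphostin 5, and with weights Cdk6 was at 0.02 and Cdkn2d at 0.04. With a library left out there, Ccnd3 ran from -0.18 to 0.33, Cdk6 from -0.89 to 0.16, Cdkn1b from -0.89 to 0.03 and Cdkn2d from -0.40 to 0.06. In the interaction, Ccnd2 was at -0.02 with weights and -0.01 with no filter, Cdkn1a at 0.25 with weights, and without Control 7 and Tyrphostin 5 Cdk4 was at 0.22 and Cdkn1a at 0.16. With a library left out, Ccnd2 ran from -0.38 to 0.39, Cdk4 from -0.30 to 0.12, Cdk6 from -0.79 to 0.23, Cdkn1a from -0.28 to 0.05 and Cdkn1b from -0.72 to 0.22. Between Control batches, Cdk6 was at -0.26 with voom and -0.47 with weights, and Cdkn1a at 0.03 with total counts. With a library left out, Ccnd3 ran from -0.08 to 0.30, Cdk4 from -0.05 to 0.19, Cdk6 from -0.60 to 0.42, Cdkn1a from -0.28 to 0.03 and Cdkn2d from -0.07 to 0.36.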
